A study of Gallus gallus with 6 samples.

Results

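The 10 genes described here are marker genes of enteroendocrine cells, the scattered hormone-secreting cells of the gut epithelium. They were chosen by symbol from a list of granule proteins and transcription factors, with case ignored. The list was drawn up with earlier results of these data known. All 10 of 10 were found, each in 1 row, among the 17623 genes of the table. CHGA, SCG2, SCG3 and PCSK1 belong to the secretory granule, NEUROD1, PAX6, NKX2-2, INSM1 and FEV are transcription factors of endocrine or serotonin-producing cells, and TPH1 makes serotonin. The table lists INSM1 as an assembled locus and the other 9 genes under Ensembl chicken identifiers.

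Ileum, the last stretch of small intestine, was taken from male Taiping chickens aged 2 months. Birds of the MP group (3 libraries) ate the basal corn and soybean diet and drank water with 2 mL of a probiotic per litre. Birds of the CT group (3 libraries) ate the same diet with 0 mL of probiotic. The labels name neither the organisms in the probiotic nor the length of the treatment, and they do not say whether each library is 1 bird. The comparison asks how ileal gene expression in MP differs from that in CT.

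Enteroendocrine cells arise from the same crypt stem cells as absorptive cells, and a relay of transcription factors moves them from progenitor to hormone-producing cell. They store peptide hormones in dense-core granules, whose matrix is built by the acidic granin proteins. Prohormones are cut inside these granules by convertases such as PCSK1. Enterochromaffin cells, the serotonin-producing kind, start from tryptophan with the enzyme TPH1. Most of what is known of these roles comes from mammals.

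The authors deposited 1 mean per gene and group, as FPKM (fragments scaled to transcript length and to sequencing depth) and as estimated counts. The mean counts summed to 15928865 per library in MP and 17150865 in CT. No library has a value of its own, so no difference below could be set against the spread between libraries, no test of the treatment could be made, and libraries that stand apart could not be looked for. Whole-ileum RNA also cannot tell a change in the number of enteroendocrine cells from a change in RNA per cell. The tissue label was checked on defining genes. EPCAM of the epithelium stood at 1032 FPKM in MP and 1016 in CT, and FABP6, an intracellular bile acid carrier typical of the ileum, at 2669 in MP and 4081 in CT. FABP6 was thus high in both groups but more than 1.5-fold lower in MP. Its difference of -0.61 in log2(FPKM + 1) was higher than that of only 1.73% of genes with at least 1 FPKM in either group. Of 8 pancreatic genes found, 5 were at 0 in both groups, and the 8 together summed to 0.073 FPKM in MP and 0.157 in CT.

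Nearly all of these genes stood slightly higher in the MP mean. With differences taken as log2(FPKM + 1) in MP minus that in CT, 9 of the 10 were higher and 1, SCG3, was lower. The median of the 10 differences was 0.19, and they ran from -0.17 to 0.47. Among all 12828 genes with at least 1 FPKM in either group, 37.7% were higher in MP, and the median difference was -0.07. Because the 10 were chosen with earlier results of these data known, this contrast is a description only. No member was 1.5-fold higher (0 of 10, against 2.87% of all these genes) or 1.5-fold lower (0 of 10, against 1.97%). All 10 members reached 1 FPKM, but PAX6 did so in MP only.

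**Figure D1:**
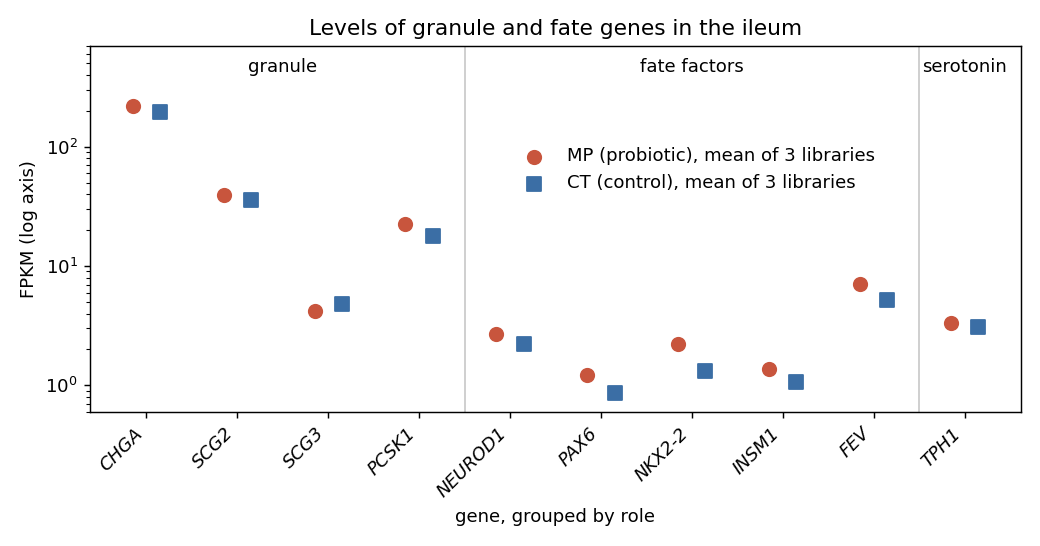
FPKM of the 10 genes on a log axis, each point the authors' mean of 3 libraries, with MP as circles on the left and CT as squares on the right of each pair. CHGA lies far above the rest at 219 in MP and 196 in CT, and SCG3 is the single gene whose MP point lies below its CT point.

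For each gene the counts were summed over the 3 libraries of a group (3 times the mean, rounded) and the ratio of MP to CT was scaled to depth. Its 95% interval covers counting error only. It holds nothing of the variation between birds, and reads made by PCR are not independent molecules. This interval lay above 1 for 6 members, against 23.7% of all measured genes, and below 1 for 1 member, against 43.3%. It held 1 for NEUROD1, INSM1 and TPH1. The interval was computed with this depth scaling only. Under another scaling it may lie above, below or around 1 for other members.

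**Figure D2:**
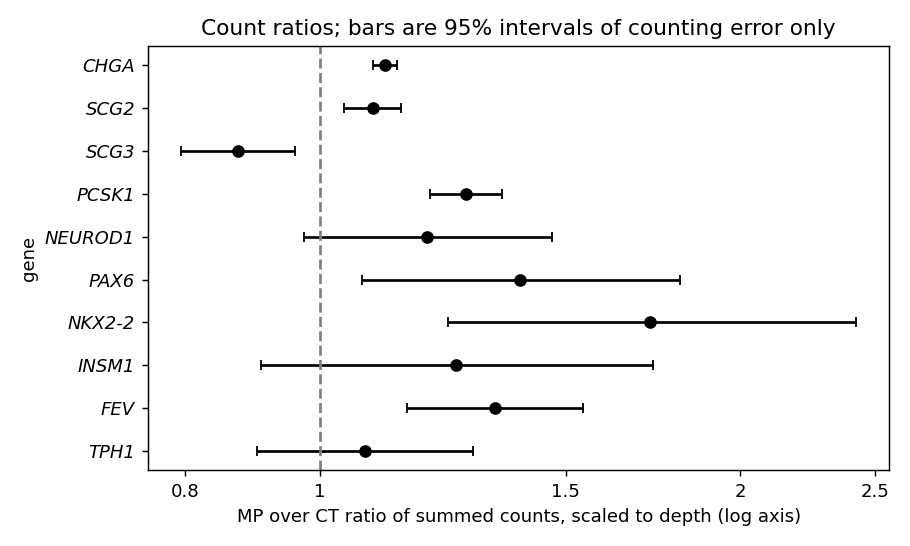
MP over CT ratio of summed counts, scaled to depth, on a log axis; bars are 95% intervals of counting error only and the dashed line marks equal levels. The interval is narrow for CHGA (1.09 to 1.13) and wide for NKX2-2 (1.23 to 2.42), and only that of SCG3 lies wholly below 1.

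The granins differed by small steps and not all the same way. Chromogranin A, CHGA (ENSGALG00000010820), shapes the granule matrix and is the most used marker of endocrine cells. It had 219 FPKM in MP and 196 in CT, from 20605 summed counts in MP and 19944 in CT, a ratio of 1.11 (1.09 to 1.13). CHGA was by far the highest member and made up 72.3% of the FPKM of all 10 genes in MP and 73.1% in CT. It stood above 98.2% of all genes in MP and 98.1% in CT. Its difference of 0.16 in log2 was higher than that of 81.3% of measured genes.

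Secretogranin II, SCG2 (ENSGALG00000029819), is a granin that also gives rise to the peptide secretoneurin. It followed with 39.1 FPKM in MP and 35.8 in CT, a count ratio of 1.09 (1.04 to 1.14). The CHGA to SCG2 ratio was 5.59 in MP and 5.46 in CT, so these granins stood in nearly the same proportion. The change of that ratio was 1.02-fold, with a counting interval of 0.97 to 1.07 that holds 1.

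Secretogranin III, SCG3 (ENSGALG00000043583), links chromogranin A to the cholesterol-rich granule membrane in mammals. It was the one lower member, at 4.19 FPKM in MP and 4.84 in CT, a count ratio of 0.874 (0.795 to 0.959). Its difference of -0.17 in log2 was higher than that of 31.4% of measured genes, within the middle range of all genes, whose quartiles were -0.21 and 0.10. CHGA exceeded SCG3 by a factor of 52.2 in MP and 40.5 in CT. The count ratio of this pair was 1.27-fold higher in MP (1.16 to 1.40), and that of SCG2 to SCG3 1.25-fold (1.13 to 1.38).

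PCSK1 (ENSGALG00000014681) encodes prohormone convertase 1/3, which cuts prohormones such as proglucagon. It stood at 22.5 FPKM in MP and 17.7 in CT, a count ratio of 1.27 (1.20 to 1.35) and a log2 difference of 0.33, above that of 91.7% of measured genes. Of the 4 granule genes among the 10 it had the largest difference. Its partner enzyme PCSK2, which is not among the 10 genes, was lower, at 9.80 FPKM in MP and 12.7 in CT, a count ratio of 0.780 (0.718 to 0.847). The PCSK1 to PCSK2 ratio of FPKM was thus 2.29 in MP and 1.39 in CT, and by counts 1.63-fold higher in MP (1.47 to 1.80). The pairs of genes set against each other here, and SCG5 and CPE below, were picked after the values were seen. SCG5, a chaperone of PCSK2, had 7.87 FPKM in MP and 9.04 in CT (count ratio 0.920, 0.817 to 1.04). CPE, which trims the cut ends, had 45.5 in MP and 48.0 in CT (0.950, 0.912 to 0.989), and PAM, which amidates peptides, 12.6 in MP and 15.3 in CT (0.820, 0.775 to 0.866).

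**Figure D3:**
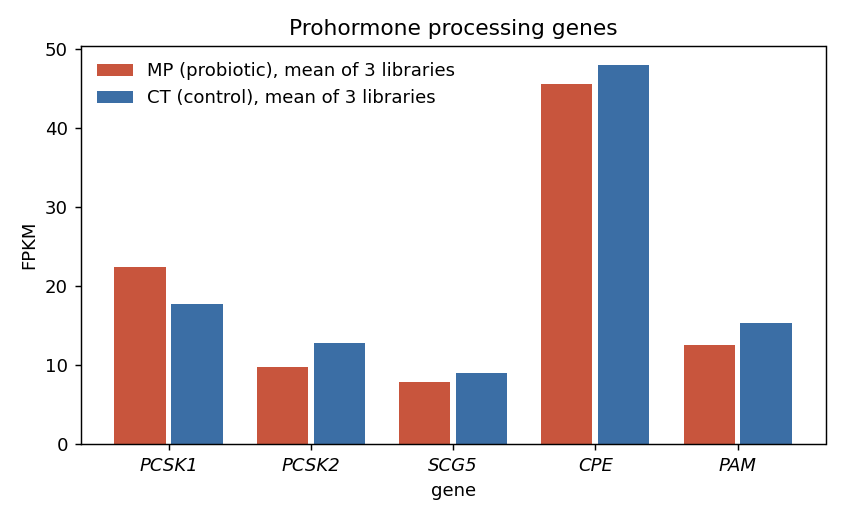
FPKM of 5 prohormone processing genes, with bars from 0, MP left and CT right, each the authors' mean of 3 libraries. PCSK1 is the single gene of the 5 with the taller bar in MP (22.5 against 17.7 in CT).

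All 5 transcription factors were higher in the MP mean, at low levels. Their FPKM summed to 14.6 in MP and 10.7 in CT, and their summed counts, 943 in MP and 763 in CT, gave a ratio of 1.33 (1.21 to 1.47). The median of their log2 differences was 0.25. Because 1 is added to each FPKM, the log2 difference understates their ratio, and precision is limited by the 60 to 420 counts behind each value.

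NKX2-2 (ENSGALG00000036869), a homeobox factor needed for several enteroendocrine fates in mice, had the largest difference of the 10 genes. It stood at 2.21 FPKM in MP and 1.31 in CT, from 96 summed counts in MP and 60 in CT. The plain FPKM ratio was 1.69 and the count ratio 1.72 (1.23 to 2.42), whereas its log2 difference of 0.47 stayed under 1.5-fold on the scale used here. That difference was higher than that of 95.7% of measured genes.

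FEV (ENSGALG00000026698), an ETS factor of serotonin-producing cells and neurons known as Pet1 in mice, was the highest of the 5 factors. It had 7.05 FPKM in MP and 5.22 in CT, a count ratio of 1.33 (1.15 to 1.54) and a log2 difference of 0.37. PAX6 (ENSGALG00000012123), a paired-box factor that drives hormone genes such as proglucagon in mammals, was the lowest member, at 1.23 FPKM in MP and 0.87 in CT. Its summed counts, 137 in MP and 106 in CT, gave a ratio of 1.39 (1.07 to 1.81).

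For NEUROD1 and INSM1 the difference lay within counting error at the depth scaling used. NEUROD1 (ENSGALG00000008908), a basic helix-loop-helix factor of late endocrine differentiation, had 2.70 FPKM in MP and 2.24 in CT, a count ratio of 1.19 with an interval of 0.973 to 1.47. INSM1, a zinc finger factor of endocrine progenitors, had 1.36 FPKM in MP and 1.07 in CT, from 86 summed counts in MP and 74 in CT, a ratio of 1.25 (0.906 to 1.73). Both point estimates lay on the side of the other 3 factors, while their intervals held equality.

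TPH1 (ENSGALG00000006236), the rate-limiting enzyme of serotonin synthesis outside the brain, had the smallest log2 difference, 0.09; with median-of-ratios scaling SCG3 (-0.11) differed less than TPH1 (0.15). It had 3.33 FPKM in MP and 3.08 in CT, from 253 summed counts in each group, a depth-scaled ratio of 1.08 (0.901 to 1.29). FEV, also found in serotonin-producing cells of mice, had a count ratio of 1.33 where TPH1 had 1.08, with intervals that overlap. Of 10 other measured genes of serotonin synthesis, storage, clearance and sensing, 6 were higher and 4 lower, and 0 were past 1.5-fold either way. The median was 0.03, against -0.07 for all measured genes, of which 37.7% were higher. Within the serotonin list the number of higher genes ran from 5 with equal FPKM totals to 8 with median-of-ratios scaling. Of all measured genes 30.1% and 50.01% were higher at these settings. DDC, which completes serotonin, had 22.6 FPKM in MP and 20.6 in CT. PTS, an enzyme of the cofactor that TPH1 needs, had 23.3 in MP and 19.2 in CT. The receptor gene HTR4 had 12.6 in MP and 9.54 in CT, while HTR7, another serotonin receptor gene, was at 6.05 in MP and 8.73 in CT.

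The order of levels was the same in both groups. From high to low it was CHGA, SCG2, PCSK1, FEV, SCG3, TPH1, NEUROD1, NKX2-2, INSM1 and PAX6. CHGA, SCG2 and PCSK1 lay above 77.6% or more of all genes in MP, and the 5 factors between the 30.4 and 51.7 percentiles. INSM1 and PAX6 lay close together, at 1.36 and 1.23 FPKM in MP, against 1.07 and 0.87 in CT. Without values per library it cannot be said which neighbours in this order differ beyond their spread.

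**Figure D4:**
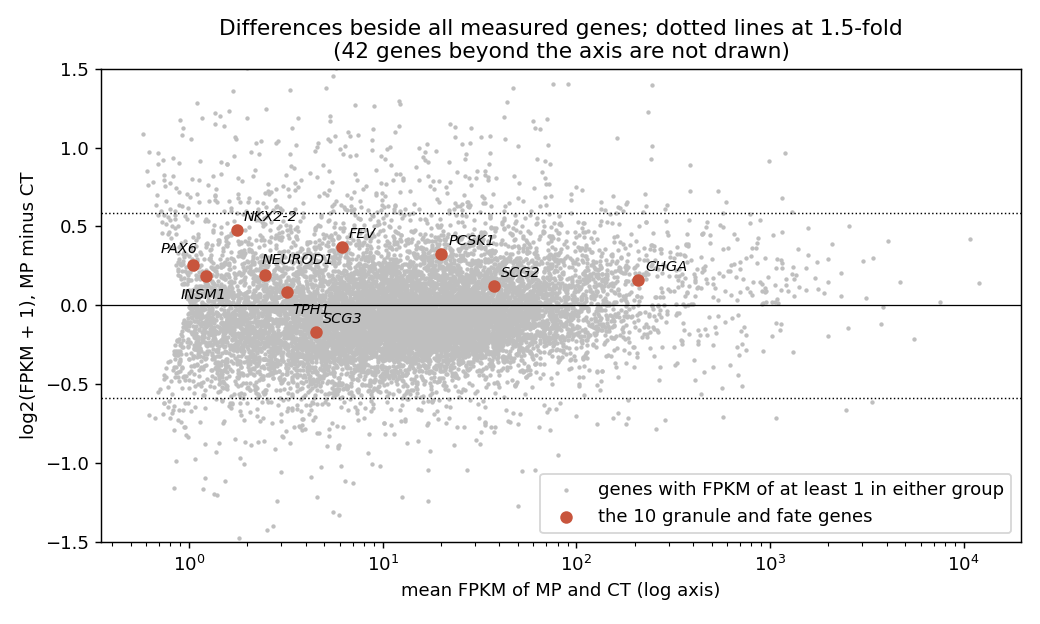
Difference in log2(FPKM + 1), MP minus CT, against mean FPKM on a log axis for the 12828 measured genes (grey) and the 10 granule and fate genes (red), with dotted lines at 1.5-fold; genes beyond a difference of 1.5 either way are not drawn. All 10 lie between the dotted lines, 9 of them above 0 and SCG3 below.

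Other genes of the same machinery were mixed. Of 12 other measured granule and processing genes, 4 were higher and 8 lower in the MP mean, with a median of -0.06 and 0 past 1.5-fold. Among all measured genes 37.7% were higher and the median was -0.07, so this list lay close to genes in general. With median-of-ratios scaling 7 of the 12 were higher (median 0.01), as were 50.01% of all measured genes (median 0). No direction can therefore be given for this list. RAB3B, a small GTPase of regulated secretion, was at 11.4 FPKM in MP and 7.97 in CT, a count ratio of 1.43 (1.31 to 1.56). PTPRN2, a granule membrane protein also called phogrin, was at 7.40 in MP and 8.73 in CT, a count ratio of 0.844 (0.779 to 0.914).

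Of 9 other measured fate factors, 2 were higher and 7 lower, where 37.7% of all measured genes were higher. The list median was -0.11, against -0.07 for all measured genes. This list median was -0.04 with median-of-ratios scaling, -0.06 with no minimum (5 of 13 higher) and -0.23 at a minimum of 5 FPKM (0 of 5 higher). The medians of all genes at these settings were 0, -0.03 (36.6% higher) and -0.07 (37.8% higher). RFX6, a winged-helix factor of endocrine differentiation in mammals, had the largest difference of them, at 2.25 FPKM in MP and 1.36 in CT, a count ratio of 1.65 (1.37 to 1.99). Its log2 difference of 0.46 was close to the 0.47 of NKX2-2. ETV1, an ETS factor, was lower, at 4.87 FPKM in MP and 6.35 in CT, a count ratio of 0.765 (0.694 to 0.843). NEUROG3 and PAX4 were not among the symbols found.

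Upstream of endocrine fate, 7 secretory lineage and Notch genes were measured, of which 2 were higher and 5 lower (median -0.09). That is close to all measured genes, of which 37.7% were higher (median -0.07). The receptor genes NOTCH2 (17.9 FPKM in MP and 23.1 in CT) and NOTCH1 (14.8 in MP and 18.9 in CT) and their target HES1 (18.4 in MP and 20.4 in CT) were lower, while SOX4 was at 21.9 in MP and 20.5 in CT. With median-of-ratios scaling the list median was -0.01, against 0 for all measured genes.

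The hormones stored in these granules were higher for 8 of 10 measured genes, with a median of 0.32, and 3 of the 10 were past 1.5-fold. Among all measured genes 37.7% were higher, the median was -0.07 and 2.87% were past 1.5-fold higher. GIP stood at 22.5 FPKM in MP and 6.12 in CT, MLN at 61.5 in MP and 38.0 in CT, PYY at 11.4 in MP and 7.23 in CT, and SST at 18.1 in MP and 12.9 in CT. These 4 hormone genes were named because their differences, from 0.45 to 1.72 in log2, were the largest of the list. That they exceed CHGA (0.16) and SCG2 (0.12) therefore follows from the choice. Among the other measured hormone genes, GCG differed by 0.13, NTS by 0.20, CCK by 0.26 and SCT by 0.37. IAPP (-0.02) and TAC1 (-0.41) were lower. With library totals and with equal FPKM totals 2 of the 10 hormone genes, not 3, were past 1.5-fold. Of all measured genes 2.97% and 2.34% were past 1.5-fold higher at these settings. Of 5 measured nutrient sensor genes, 4 were higher and 1 lower. With library totals and with equal FPKM totals 3 were higher, against 37.85% and 30.1% of all measured genes. FFAR4 counted as higher at 10.23 FPKM in MP and 10.22 in CT, and only TRPM5 had a counting interval above 1. TRPA1, the lower gene, was at 4.72 in MP and 5.51 in CT, a count ratio of 0.863 (0.785 to 0.947). With no minimum 6 of the 9 sensor genes found were higher, against 36.6% of all genes. Under 1 FPKM in both groups, PIEZO2 had a count ratio of 0.647 (0.544 to 0.768) and CASR of 0.406 (0.289 to 0.562). TRPM5, a taste-type channel also found in tuft cells, was at 44.7 FPKM in MP and 25.1 in CT.

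**Figure D5:**
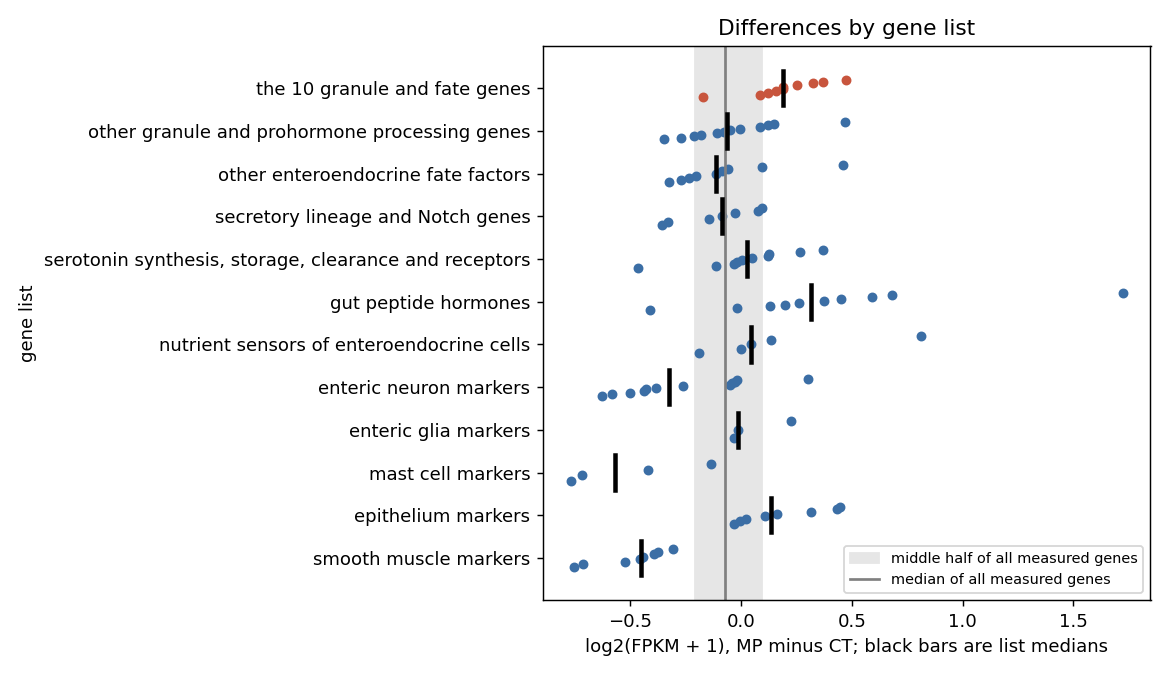
Difference in log2(FPKM + 1), MP minus CT, of each measured gene by list (points), with list medians as black bars, the median of all measured genes as a grey line and their middle 50% shaded. The 10 granule and fate genes have a median of 0.19, between the hormones (0.32) and the epithelium markers (0.14), while neuron markers (-0.32), mast cell markers (-0.57) and smooth muscle markers (-0.45) lie lower.

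Markers of other cell types differed between the groups too, and their part in the values above was not tested. For comparison, 37.7% of all measured genes were higher in MP, with a median of -0.07. Of 8 epithelium markers, 6 were higher in MP (median 0.14). With median-of-ratios scaling 8 of 8 were (0.21), and with equal FPKM totals 5 of 8 (0.08). At these settings 50.01% (median 0) and 30.1% (median -0.12) of all measured genes were higher. The 8 summed to 2700 FPKM in MP and 2404 in CT, a ratio of 1.12, and singly ran from 0.98 (KRT8) to 1.36 (KRT20). The 10 granule and fate genes summed to 303 in MP and 268 in CT, a ratio of 1.13. CHGA, with an FPKM ratio of 1.12, made up 72.3% of that sum in MP and 73.1% in CT. The sum therefore says little about the other members. The 5 factors summed to 14.6 in MP and 10.7 in CT, and SCG3 had an FPKM ratio of 0.866. EPCAM had a count ratio of 1.02 and VIL1, a protein of the absorptive brush border, of 1.25. Relative to EPCAM, CHGA was 1.09-fold higher in MP (1.07 to 1.12) and PCSK1 1.25-fold (1.17 to 1.32). Relative to VIL1, CHGA was 0.888-fold (0.868 to 0.909) and PCSK1 1.02-fold (0.956 to 1.08). The direction of CHGA therefore depended on which epithelial gene it was set against.

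Enteric neurons also express SCG2, SCG3, PCSK1 and much of the granule machinery. Of 12 measured neuron markers, 11 were lower in MP, with a median of -0.32. Most genes were lower in MP too: 37.7% of all measured genes were higher, with a median of -0.07. The 14 neuron markers found summed to 73.5 FPKM in MP and 94.9 in CT, none of them at 0. With median-of-ratios scaling 7 of the 12 were lower (median -0.26), while 50.01% of all measured genes were higher (median 0). NEFL was at 2.04 FPKM in MP and 3.70 in CT, RET at 4.74 in MP and 7.58 in CT, and NOS1 at 1.01 in MP and 1.84 in CT. VIP was at 33.6 in MP and 45.8 in CT. ELAVL4 differed little, at 3.08 in MP and 3.21 in CT, a count ratio of 0.955 (0.798 to 1.14). SCG3 and PCSK2 were lower alongside most of these markers, whereas SCG2, PCSK1 and CHGA were higher.

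Mast cells, which can make serotonin with TPH1 in rodents, had 4 measured markers, all lower in MP (median -0.57). This count and the smooth muscle count below stand beside 37.7% of all measured genes higher, with a median of -0.07. HDC was at 2.47 FPKM in MP and 4.90 in CT, GATA2 at 2.70 in MP and 5.09 in CT, KIT at 4.09 in MP and 5.81 in CT and HPGDS at 121 in MP and 132 in CT. The 4 summed to 130 in MP and 148 in CT, most of it HPGDS, so the sum says little about the other markers. KIT also marks the pacemaker cells of gut muscle. All 8 smooth muscle markers were lower (median -0.45), summing to 2329 FPKM in MP and 3455 in CT, with ACTG2 at 816 in MP and 1336 in CT and CNN1 at 135 in MP and 227 in CT. Of 3 measured glia markers 1 was higher (median -0.01), and all 3 were with median-of-ratios and upper-quartile scaling. At these 2 scalings 50.01% and 45.01% of all measured genes were higher. The 5 found summed to 94.1 FPKM in MP and 82.8 in CT. Most of this sum was ERBB3, the 1 higher measured gene, at 77.0 in MP and 65.8 in CT. SOX10 (2.15 in MP and 2.21 in CT) and S100B (13.8 in MP and 13.9 in CT) differed little. None of the markers found in these 3 lists was at 0.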

How the data were processed

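Ileal RNA was sequenced in 3 MP and 3 CT libraries. Per the labels' protocols, RNA came from a TRIzol extraction, and the library kit is described as one for small RNA. StringTie 1.3.1, HISAT2, Bowtie2, DESeq2 and fastp 0.18.0 are named without roles, per the submitters' processing notes. No source used here gives a genome build, and no coordinates are printed. The authors deposited FPKM and estimated counts per gene, per the file headers, as 1 mean of 3 libraries per group (100% of FPKM values end in 0, 3 or 7 at the third decimal). The 4 columns of other samples were not used. Symbols are those of the table; 9 of the 10 genes carry an NCBI gene number and all 9 matched a RefSeq gene of assembly GRCg7b, used for names only.

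From these values log2(FPKM + 1) differences, MP minus CT, were computed (a pseudocount of 1, a minimum of 1 FPKM in either group, a threshold of 1.5-fold). Count ratios were divided by the depth ratio of 0.929, with exact conditional Clopper-Pearson 95% intervals (SciPy 1.17.1); intervals for changes of a ratio between a pair of genes are normal approximations on the log scale. The steps were tested on simulated data. That test checks the computation only, because the spread between birds or libraries is not known here, and it says nothing of how reliable the differences are. The planned fallback for group means was used, with no test; promoter and protein sequences were not analysed here. The 10 genes and the 12 lists beside them were chosen with earlier results of these data known. Genes named are the 10, up to 4 per list with the largest difference, and ELAVL4, EPCAM, VIL1 and KIT (the values of some single genes that this rule covers are left out). FABP6, SCG5, CPE, FFAR4, PIEZO2, CASR, GCG, NTS, CCK, SCT, IAPP and TAC1 were chosen after their values were seen. Alternatives were another pseudocount, 4 scalings and other minimum values.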

Additional observations from a re-analysis of the deposited data

How the results depend on the processing

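No paired analysis was possible because each column is a group mean with no replicate number; for the same reason leaving out libraries, edgeR and DESeq2 were not run. The scaling to equal FPKM totals was chosen after seeing the data. The direction of each of the 10 genes was the same under all 7 alternatives in which it was measured. Another pseudocount or minimum cannot change a direction, so only the 4 scalings could have done so. Of these, median-of-ratios and upper-quartile scaling raised every difference, so they could have turned only SCG3. Under each alternative 9 of 10 were higher, except a minimum of 5 FPKM, where 4 genes were left and 4 were higher. The share of all genes that were higher ran from 30.1% with equal FPKM totals to 50.01% with median-of-ratios scaling. At these settings the median of all genes was -0.12 and 0. The median of the 10 ran from 0.15 with equal FPKM totals to 0.29 with a pseudocount of 0.1. With that pseudocount 1 gene, NKX2-2 (0.71), was past 1.5-fold higher, against 0 otherwise; at this setting 3.98% of all genes were past 1.5-fold higher and 4.12% lower. Of 64 recomputed differences of single genes, 60 stayed within the counting error and 4 did not. The 4 were CHGA with median-of-ratios (0.24), upper-quartile (0.21) and equal-total scaling (0.10), and SCG2 with median-of-ratios scaling (0.20). Part of the 60 was fixed in advance, because another minimum cannot change the difference of a single gene. The counting error is also wide for genes with few counts. NKX2-2 therefore counts among the 60 at 0.71 with a pseudocount of 0.1, against 0.47 with 1. Of 77 recomputed list medians 6 moved by more than the median counting error of the single genes in their list. That limit is not an error of the list median, and it is wide for lists of genes with few counts. The other fate factors, at -0.23 with a minimum of 5 FPKM against -0.11, therefore did not count as moved. All 6 came with median-of-ratios, upper-quartile or equal-total scaling: epithelium markers (0.21, 0.19 and 0.08) and smooth muscle markers (-0.37, -0.40 and -0.51). Another 5 changed sign: other granule genes (0.01) and glia (0.06) with median-of-ratios scaling, glia with upper-quartile scaling (0.03) and a minimum of 5 FPKM (0.11), and serotonin genes with equal FPKM totals (-0.02). Depth limits NKX2-2, INSM1 and PAX6 most, with 60 to 137 summed counts per group. The counting intervals were not recomputed under other scalings, so which of them hold 1 may depend on the scaling.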

Other observations

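TRPM5 is expressed by tuft cells as well as by some enteroendocrine cells, so other tuft cell genes were looked up after its value was seen. PTGS1, at 7.35 FPKM in MP and 10.7 in CT, PLCB2, at 8.63 in MP and 10.7 in CT, ALOX5, at 9.88 in MP and 11.9 in CT, and POU2F3, at 1.06 in MP and 1.43 in CT, were lower in the MP mean. GFI1B (count ratio 1.06), DCLK1 (0.990) and CHAT (1.12), under 1 FPKM in both groups, had counting intervals that hold 1, and GNAT3, under 1 FPKM too, had a ratio of 0.281 (0.0936 to 0.710). TRPM5 had a count ratio of 1.79 (1.73 to 1.86). CASR, a calcium and amino acid sensor of enteroendocrine cells that lay under 1 FPKM in both groups, was at 0.347 in MP and 0.873 in CT, a count ratio of 0.406 (0.289 to 0.562). ISL1, a LIM homeobox factor gene also under that minimum, was at 0.46 in MP and 0.24 in CT, a count ratio of 1.85 (1.05 to 3.33). TAC1, a peptide gene of enterochromaffin cells and enteric neurons, was at 6.52 in MP and 8.99 in CT. It was lower like most neuron markers and unlike most of the other hormone genes. These genes were chosen after their values were seen, and none of these differences could be set against the spread between libraries.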
